A study of Drosophila melanogaster with 12 samples.

Results

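Genes of the piRNA pathway, the germline genes otu and nos and the gene CG33181 were followed across 4 genotypes of sorted enteroblasts from the adult fly midgut. The list held 9 symbols: piwi, aub, AGO3, vas, armi, zuc, otu, CG33181 and nos. Counts were matched to 5 of them (piwi, AGO3, armi, zuc and CG33181) among the 8802 genes of the counts table. The other 4 (aub, vas, otu and nos) had no matching row and are not analysed here. The genes were chosen by their levels in the SvbACT libraries, where piwi and CG33181 were already known to be high. For that reason every value of these genes that involves SvbACT is a description with no test.

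PIWI-interacting RNAs (piRNAs) are small RNAs that guide PIWI-family Argonaute proteins to transposon transcripts. In flies the pathway is best known from the ovary and testis, where Piwi silences transposons in the nucleus while Aubergine and AGO3 cut their transcripts in the cytoplasm. The gene ovo makes both germline transcription factors, among them an activator of the otu promoter in the female germline, and Shavenbaby (Svb), the form used in epithelia. The gut cells studied here are somatic.

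All flies carried esg-Gal4 and UAS-GFP together with the heat-sensitive Gal80 repressor (tubGal80TS), which confines UAS-driven expression to escargot-expressing progenitors at high temperature. SvbACT flies also carried UAS-SvbACT::GFP, a constitutive activator form, and SvbREP flies UAS-Svb3Kmut::GFP, the form that the labels name for the repressor. RNAiSvb flies carried UAS-SvbRNAi, a hairpin against svb. Control (Ctrl) flies came from the driver line crossed to Canton-S and were the only group with no second UAS construct. In every comparison with Ctrl, genotype and strain background thus cannot be told apart. The females were virgins, 9 days old after 6 days at 29 °C. Cells of high GFP and large size were sorted from pooled posterior midguts, so one library stands for many animals, and the driver is also active in intestinal stem cells. There were 3 replicates per group, made on different days.

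Library totals ran from 2186283 to 7444253 counts. The shallowest was SvbREP replicate 3, in which 1013 genes had no counts. Genes without a count numbered 298, 930 and 895 in SvbACT replicates 1, 2 and 3. Levels are given as CPM, counts relative to library size after TMM scaling, and 3 counts corresponded to between 0.379 and 1.40 CPM. Of the 8 progenitor markers listed, 5 had rows (Su(H), E(spl)mbeta-HLH, klu, Sox21a and Sox100B), and all 5 were detected in every group. klu and Sox100B were lower in RNAiSvb than in Ctrl. The summed level of the 5 was 2045 to 2083 CPM in SvbACT, 1642 to 1763 CPM in SvbREP, 1444 to 1685 CPM in RNAiSvb and 2075 to 2278 CPM in Ctrl. In bulk libraries, fewer cells of a type and less RNA per cell cannot be told apart.

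ovo itself gave 12107, 8572 and 13750 counts in SvbACT, 7317, 11385 and 3750 in SvbREP, 195, 126 and 97 in RNAiSvb and 9, 117 and 1 in Ctrl. ovo reads were therefore not lower in the libraries labelled RNAiSvb than in Ctrl, and directions for that group are those of its label. The counts do not tell the gene's own transcripts from those of a transgene or hairpin.

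piwi encodes the nuclear PIWI protein and lies on chromosome 2L from 10982205 to 10987420, minus strand, in dm6 coordinates. Its counts were 3470, 2353 and 2742 counts in SvbACT, 54, 72 and 17 in SvbREP, 117, 222 and 121 in RNAiSvb, and 49, 134 and 29 in Ctrl. The mean level was 551 ± 28.6 CPM in SvbACT, 8.41 ± 0.61 CPM in SvbREP, 30.8 ± 9.99 CPM in RNAiSvb and 13.0 ± 5.35 CPM in Ctrl (SD, n = 3 each). Every SvbACT library lay far above every other library, and the SvbACT replicates were close together, at 519 to 575 CPM. SvbACT stood above Ctrl by 5.37 ± 0.31 (SE) on the log2 scale, about 41.3-fold, and above SvbREP by 6.02 ± 0.33.

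Per kilobase of exon, piwi stood at 179 CPM per kb in SvbACT, which placed it 302nd of 7956 genes of known length. In Ctrl it stood at 4.23 CPM per kb, in place 6100. By the same measure AGO3 was at 9.26 CPM per kb in SvbACT and 7.86 CPM per kb in Ctrl. piwi was thus far above AGO3 per unit length in SvbACT and below it in Ctrl.

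**Figure D1:**
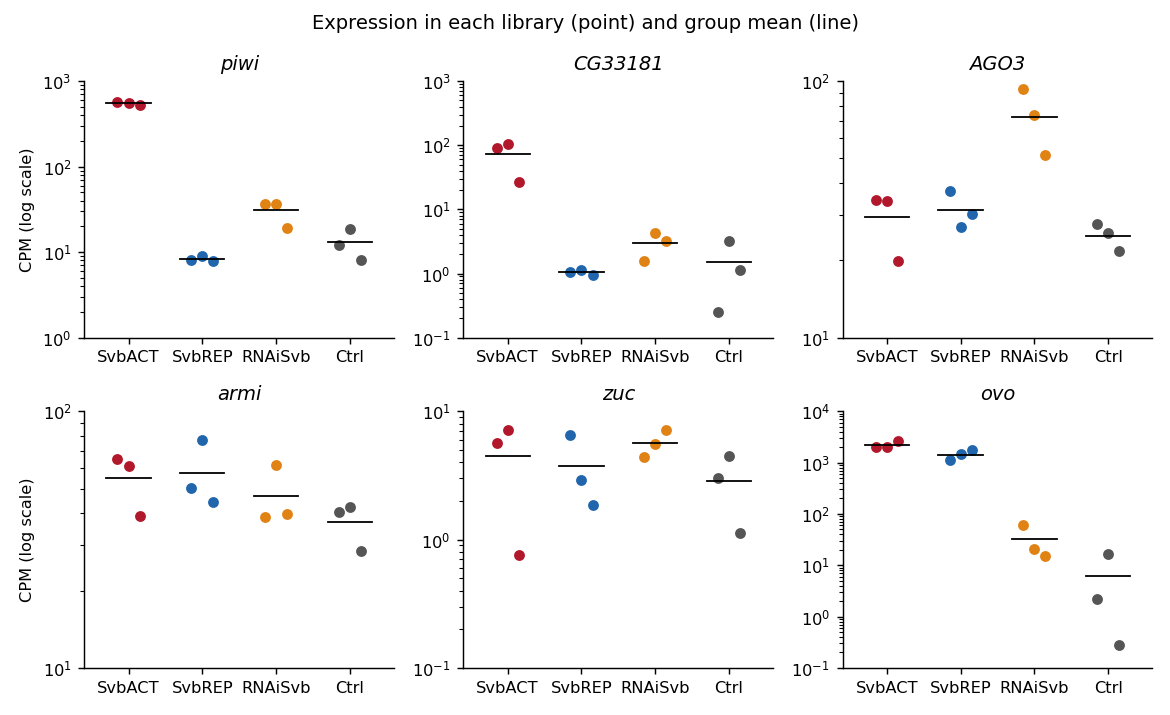
Level of piwi, CG33181, AGO3, armi, zuc and ovo in CPM (log axis) in the 3 libraries of each group (points) with the group mean (line). The piwi points of SvbACT lie between 519 and 575 CPM, and AGO3 is highest in the 3 RNAiSvb libraries.

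Away from SvbACT, piwi rose in RNAiSvb and differed between SvbREP and RNAiSvb. The RNAiSvb libraries had 36.7, 36.4 and 19.2 CPM and the Ctrl libraries 12.2, 18.7 and 8.09 CPM. The lowest RNAiSvb library lay just above the highest Ctrl library. This was a log2 fold change of 1.20 ± 0.28, or 2.29-fold (edgeR quasi-likelihood, adjusted p 0.0104). The Ctrl libraries also stand in the SvbACT rise for which piwi was chosen, so this p is not independent of that choice. The call was lost without Ctrl replicate 1 (adjusted p 0.0512), Ctrl replicate 3 (0.0543) or RNAiSvb replicate 2 (0.0505).

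SvbREP libraries had 8.20, 9.09 and 7.94 CPM of piwi, all below the 3 RNAiSvb libraries. The log2 fold change of SvbREP over RNAiSvb was -1.85 ± 0.29 (edgeR adjusted p 0.000473). This pair of groups holds no SvbACT or Ctrl library. The fit still estimated spread over all 12 libraries, and piwi was chosen with earlier results of these data known. This p is therefore not fully independent of that choice. Against Ctrl the ranges overlapped, with a log2 fold change of -0.65 ± 0.30 that did not pass the threshold (edgeR adjusted p 0.367). In the order of levels, SvbACT came first, then RNAiSvb, then Ctrl and SvbREP, the last pair not separated beyond their spread.

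The 3' end of piwi shares 191 bp of exon, outside its coding sequence, with SCAR on the opposite strand, and whether reads were counted by strand is not given in the sources used here. SCAR had a log2 fold change of -0.42 ± 0.21 in SvbACT over Ctrl (edgeR adjusted p 0.315). Of 16 genes annotated within 25000 bp of piwi, 13 were tested, and none was called in SvbACT over Ctrl by edgeR, where the smallest adjusted p was 0.109. aub, the other PIWI gene of this stretch, lies 10399 bp away and is not analysed here.

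AGO3 encodes the cytoplasmic PIWI protein that pairs with Aubergine in the ping-pong cycle, and lies on 3L from 23554593 to 23689640. It had 207, 144 and 105 counts in SvbACT, 246, 213 and 65 in SvbREP, 297, 449 and 324 in RNAiSvb and 111, 183 and 78 in Ctrl. RNAiSvb stood apart, at 93.1, 73.6 and 51.5 CPM, with every other library between 19.9 and 37.4 CPM. The Ctrl libraries had 27.7, 25.6 and 21.8 CPM.

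AGO3 rose in RNAiSvb, to 72.7 ± 20.8 CPM against 25.0 ± 3.01 CPM in Ctrl (SD, n = 3 each), 1.53 ± 0.29 higher on the log2 scale (edgeR adjusted p 0.00196). All 13 alternative settings kept this call. AGO3 was also lower in SvbREP than in RNAiSvb, with 31.5 ± 5.33 CPM in SvbREP and a log2 fold change of -1.20 ± 0.29 (edgeR adjusted p 0.0123). That call was lost without RNAiSvb replicate 1 (adjusted p 0.079) or SvbREP replicate 2 (adjusted p 0.0654).

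In SvbACT, AGO3 had 29.5 ± 8.29 CPM and overlapped both SvbREP and Ctrl. Its log2 fold change over Ctrl was 0.23 ± 0.29, beside 5.37 for piwi. In the authors' deposited table, AGO3 had a log2 fold change of -1.29 in the comparison of the activator form with the hairpin. The pair of PIWI genes therefore had different orders of levels: piwi was highest in SvbACT and AGO3 in RNAiSvb.

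armi encodes Armitage, an RNA helicase that brings piRNA precursors to mitochondria (3L from 3461317 to 3466314). It had 65.3, 61.1 and 39.0 CPM in SvbACT, 50.3, 77.3 and 44.4 CPM in SvbREP, 38.6, 61.5 and 39.7 CPM in RNAiSvb and 40.4, 42.2 and 28.5 CPM in Ctrl. The SvbREP libraries all lay above the Ctrl libraries, by little, and the other groups overlapped Ctrl. No difference passed the test, with log2 fold changes over Ctrl of 0.63 ± 0.29 in SvbREP (edgeR adjusted p 0.361) and 0.33 ± 0.29 in RNAiSvb (edgeR adjusted p 0.629). In SvbACT over Ctrl it was 0.57 ± 0.29. The annotation places CG46463 on the same strand over 99.6% of the exon sequence of armi, so the counts cannot be given to armi alone.

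zuc encodes Zucchini, the mitochondrial endonuclease that cuts those precursors (2L from 11988735 to 11989882). It was near the limit of detection, with 34, 30 and 4 counts in SvbACT, 43, 23 and 4 in SvbREP, 14, 34 and 45 in RNAiSvb and 12, 32 and 4 in Ctrl. The means were 4.51 CPM in SvbACT, 3.77 CPM in SvbREP, 5.70 CPM in RNAiSvb and 2.86 CPM in Ctrl, with overlapping ranges. No difference was detectable at this depth, with log2 fold changes over Ctrl of 0.41 ± 0.79 in SvbREP (edgeR adjusted p 0.914) and 0.97 ± 0.79 in RNAiSvb (edgeR adjusted p 0.593).

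**Figure D2:**
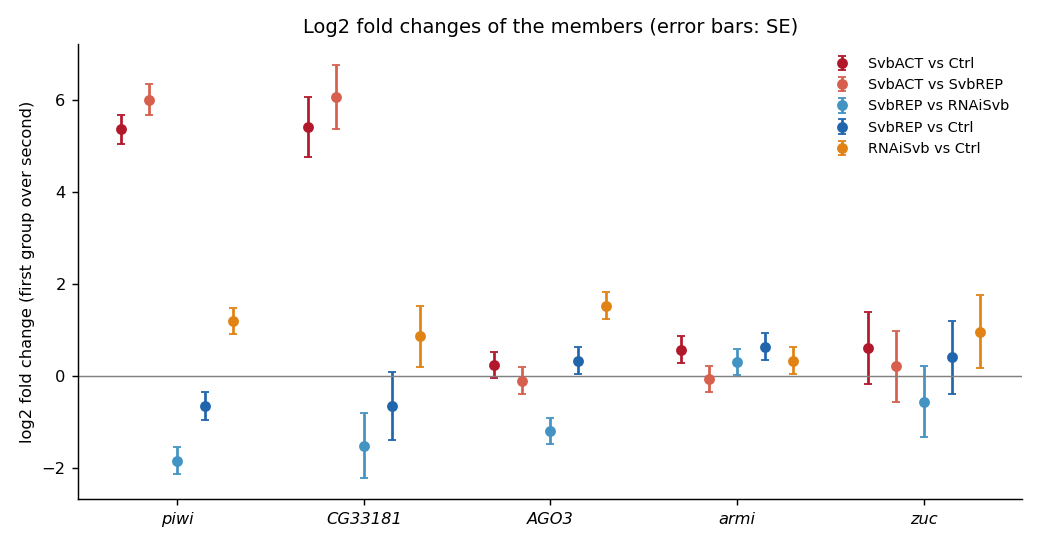
Log2 fold changes of the 5 measured genes in 5 comparisons (points, first group over second), with SE as error bars. Values near 5.4 over Ctrl set piwi and CG33181 apart from AGO3, armi and zuc in SvbACT, while AGO3 is at 1.53 in RNAiSvb over Ctrl.

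CG33181 is a protein-coding gene on the plus strand of X, from 8489348 to 8517029. It begins within the 5' end of otu, which runs the other way from 8489535 down to 8485008 and encodes a protein needed for oogenesis. The 2 genes share 162 bp of exon, 3.05% of the exon sequence of CG33181, on opposite strands and outside its coding sequence. Only 1 of the 8 annotated CG33181 transcripts reaches into otu. The others start 467 bp to 20329 bp downstream of the first start, whereas 4 of the 5 otu transcripts start 187 bp inside CG33181. Most of the annotated exon sequence of CG33181 is thus not shared with otu, and its counts are not a measure of otu.

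**Figure D3:**
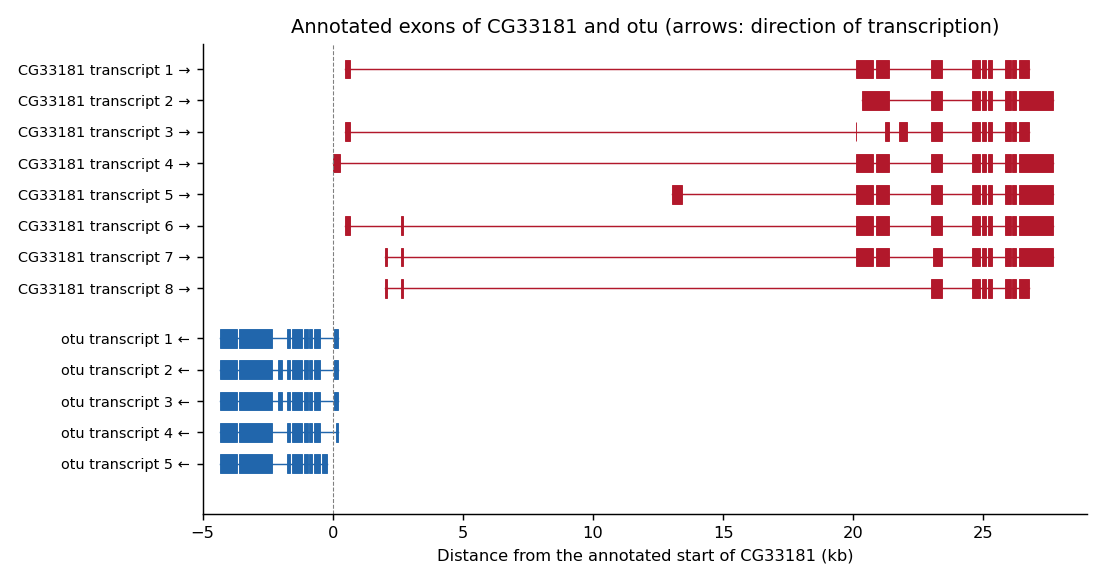
Annotated exons (boxes) of the 8 transcripts of CG33181 and the 5 of otu, by distance in kb from the annotated start of CG33181, with arrows for the direction of transcription. The genes point away from each other, and only 1 CG33181 transcript begins upstream of the shared 162 bp.

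CG33181 had 547, 442 and 141 counts in SvbACT, 7, 9 and 2 in SvbREP, 5, 26 and 20 in RNAiSvb and 1, 23 and 4 in Ctrl. The levels were 90.6, 105 and 26.7 CPM in SvbACT, against at most 4.26 CPM in any other library. Unlike piwi, CG33181 varied between SvbACT replicates, with replicate 3 the lowest. piwi, AGO3, armi and zuc were also lowest in that library among the SvbACT replicates. SvbACT over Ctrl gave a log2 fold change of 5.42 ± 0.66, and 6.77 without Ctrl replicate 2. The filter on low counts kept CG33181 with only RNAiSvb and Ctrl in the fit. It did not with only SvbREP and Ctrl, or SvbREP and RNAiSvb.

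Ctrl replicate 2 had the highest level among Ctrl libraries of ovo, piwi and CG33181, at 16.3, 18.7 and 3.21 CPM. The part of that library in the comparisons with Ctrl is given by the fits without it. Without it, the log2 fold change of CG33181 in SvbREP over Ctrl was 0.70, against -0.66 ± 0.74 with it. In RNAiSvb over Ctrl, CG33181 had a log2 fold change of 0.86 ± 0.66, and 2.24 without that library. In SvbREP over RNAiSvb it was -1.52 ± 0.70. No p is given for these values, since levels outside SvbACT were too close to the floor to order the other groups.

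Of the 12 genes annotated within 25000 bp of CG33181, which include chorion genes, 3 were tested. None of these 3 was called in SvbACT over Ctrl by edgeR, and the smallest adjusted p was 0.445. Nrg, the cell adhesion gene 344 bp from CG33181, had a log2 fold change of 0.25 ± 0.16.

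In all, 2 of the 4 measured genes other than CG33181 (piwi and AGO3) rose in RNAiSvb over Ctrl, where 8.5% of all 8069 tested genes were called, 1.85% higher and 6.66% lower. The same 2 genes were lower in SvbREP than in RNAiSvb, where 8.7% of all genes were called, 5.68% higher and 3.02% lower. In SvbREP over Ctrl edgeR called 0 of these 4, DESeq2 also called 0, and 2 (piwi and armi) had an unadjusted p under 0.05. In that comparison 2.08% of all genes were called, 0.731% higher and 1.35% lower. The replicate block raised the number called there to 290, against 168 without it. The comparisons of RNAiSvb with Ctrl and of SvbREP with RNAiSvb share the RNAiSvb libraries, so their directions are linked. The piwi call in RNAiSvb over Ctrl also shares the Ctrl libraries with the SvbACT rise behind its choice.

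The genes most like piwi over the 12 libraries, by Pearson correlation of log2 CPM among 6651 genes, were Hex-A (r = 0.962), CG2852 (0.955) and norpA (0.954). For CG33181 they were piwi (0.950), CG2852 (0.941) and CG15083 (0.938). These values rest on the contrast between the SvbACT libraries and the other 9 and are given with no p. CG2852 averaged 972 ± 51.1 CPM in SvbACT, 92.8 ± 9.39 CPM in SvbREP, 109 ± 19.9 CPM in RNAiSvb and 112 ± 1.24 CPM in Ctrl (SD, n = 3 each).

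Other genes of piRNA biogenesis were examined next. Of 25 listed genes, members included, 19 had rows and 17 were tested, 13 of them beyond piwi, AGO3, armi and zuc. In SvbACT over Ctrl, 3 of those 13 rose and 0 fell, where 4.46% of all tested genes were called, 1.91% higher and 2.55% lower. They were spn-E, vret and shu. In RNAiSvb over Ctrl edgeR called 1 of the 13 as higher (spn-E), and DESeq2 also called vret. In SvbREP over Ctrl edgeR called 0 of all 17, with 7 at an unadjusted p under 0.05, 2 called by DESeq2 and 2 with the replicate block. The median log2 fold change of the 13 in SvbACT over Ctrl was 0.12, against -0.01 over all tested genes.

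spn-E encodes Spindle E, a helicase of the germline nuage. It had 61.4, 56.1 and 38.6 CPM in SvbACT, 24.1, 23.0 and 11.7 CPM in SvbREP, 22.9, 31.8 and 29.7 CPM in RNAiSvb and 4.49, 10.6 and 6.98 CPM in Ctrl. All 9 libraries with a second UAS construct lay above all 3 Ctrl libraries. Over Ctrl, spn-E rose by 2.79 ± 0.37 on the log2 scale in SvbACT (edgeR adjusted p 0.000166) and by 1.91 ± 0.36 in RNAiSvb (edgeR adjusted p 0.00205), and both calls held in all 13 alternatives. In SvbREP over Ctrl it was 1.41 ± 0.36 (edgeR adjusted p 0.0529, and 0.0289 with the replicate block). SvbACT was above SvbREP by 1.38 ± 0.34 (edgeR adjusted p 0.0193), in a comparison where 7.21% of all genes were called, 3.53% higher and 3.68% lower. Among the 13, edgeR called only spn-E there, and the call was lost without SvbACT replicate 1 or 2 or SvbREP replicate 2 or 3, with adjusted p up to 0.0767.

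vret encodes Vreteno, a Tudor protein needed for Piwi loading. It had 16.4, 21.6 and 22.3 CPM in SvbACT, 18.2, 13.8 and 13.1 CPM in SvbREP, 16.0, 11.1 and 10.2 CPM in RNAiSvb and 2.75, 8.24 and 1.95 CPM in Ctrl. Here too every library with a second UAS construct lay above the Ctrl libraries. Over Ctrl its log2 fold change was 2.15 ± 0.47 in SvbACT (edgeR adjusted p 0.0125), and the call was lost without Ctrl replicate 1 or 3, with adjusted p up to 0.0812. In SvbREP over Ctrl it was 1.74 ± 0.47 (edgeR adjusted p 0.0665, and 0.0431 with the replicate block), and in RNAiSvb 1.45 ± 0.47 (edgeR adjusted p 0.0663, and 0.0277 by DESeq2). Its exons share 128 bp with CG6985 on the opposite strand.

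shu encodes Shutdown, a cochaperone for loading PIWI proteins. It averaged 15.2 ± 1.00 CPM in SvbACT, 12.1 ± 4.76 CPM in SvbREP, 12.1 ± 1.88 CPM in RNAiSvb and 5.46 ± 1.44 CPM in Ctrl (SD, n = 3 each). Only the SvbACT comparison passed, narrowly, with a log2 fold change of 1.46 ± 0.41 (edgeR adjusted p 0.0496), and the call was lost in 8 of 13 alternatives, among them each fit without 1 SvbACT or Ctrl replicate. The comparisons of SvbACT, SvbREP and RNAiSvb with Ctrl share the Ctrl libraries, and Ctrl was also the only group crossed to Canton-S. Genotype and strain background therefore cannot be told apart for these 3 genes, nor for piwi, AGO3 or any other gene compared with Ctrl.

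**Figure D4:**
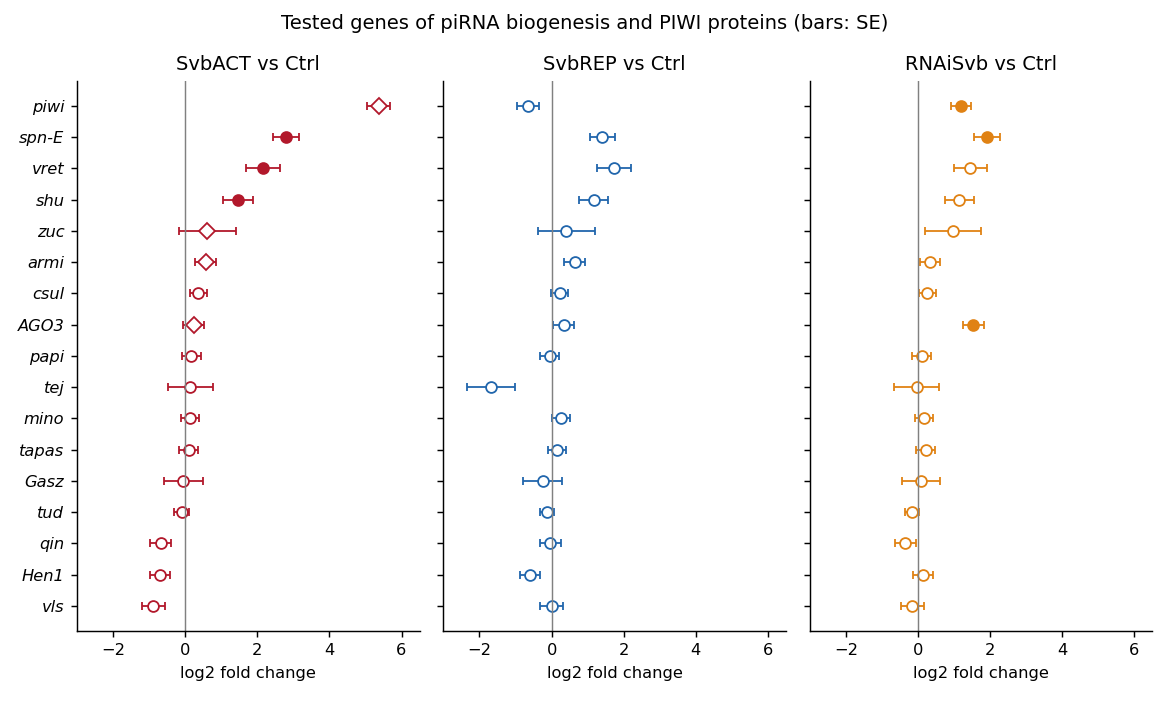
Log2 fold changes over Ctrl, with SE, of the 17 tested genes of piRNA biogenesis in SvbACT, SvbREP and RNAiSvb. Filled circles have an edgeR adjusted p under 0.05, open circles do not, and diamonds mark the 4 genes described without a test in SvbACT. piwi stands at 5.37 in SvbACT, and spn-E and vret lie to the right of 0 in all 3 panels.

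edgeR called none of the other tested biogenesis genes in any of the 5 comparisons. DESeq2 called 1 of them, tej, as higher in SvbACT than in SvbREP (adjusted p 0.0452). tud, a Tudor scaffold of the germ plasm, had the highest CPM per kb of them, at 64.55 CPM per kb in SvbACT, 63.5 CPM per kb in SvbREP, 61.7 CPM per kb in RNAiSvb and 69.2 CPM per kb in Ctrl on average. krimp and BoYb had rows but too few counts to be tested.

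Of 18 genes of nuclear silencing and piRNA cluster transcription, 12 had rows and were tested. edgeR called 0 of the 12 in SvbACT, SvbREP or RNAiSvb over Ctrl, with 2, 1 and 3 at an unadjusted p under 0.05 and 2, 1 and 1 called by DESeq2. del, which encodes Deadlock of the Rhino complex, was higher in SvbREP than in RNAiSvb, at 66.6 ± 8.28 CPM in SvbREP and 38.0 ± 1.80 CPM in RNAiSvb (SD, n = 3 each). This was a log2 fold change of 0.82 ± 0.24 (edgeR adjusted p 0.0445), and the call was lost in 8 of 13 alternatives, with adjusted p up to 0.170. rhi and cuff, which encode the partners of Deadlock, had no matching row.

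Of 18 germline genes listed, 11 had rows and were tested, and the median log2 fold change in SvbACT over Ctrl was -0.14. edgeR called 0 of the 11 there, 3 had an unadjusted p under 0.05 and DESeq2 called 1. grk, the germline TGF-alpha ligand Gurken, had 41, 16 and 45 counts in SvbACT, 2, 7 and 1 in SvbREP, 4, 27 and 12 in RNAiSvb and 1, 2 and 10 in Ctrl. Its log2 fold change in SvbACT over Ctrl was 2.59 ± 0.99 (edgeR adjusted p 0.177). egl, which links localised mRNAs to dynein, rose in RNAiSvb to 168 ± 21.0 CPM, against 88.6 ± 7.25 CPM in Ctrl (SD, n = 3 each), by 0.92 ± 0.18 on the log2 scale (edgeR adjusted p 0.0026). egl was lower in SvbREP than in RNAiSvb by a log2 fold change of -1.05 ± 0.18 (edgeR adjusted p 0.000959).

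Genes of the siRNA and miRNA pathways were set beside the piRNA genes. All 11 listed genes were tested, among them AGO1, AGO2, Dcr-1 and Dcr-2, and edgeR called only blanks in any of the 5 comparisons. DESeq2 also called Dcr-2 as higher in RNAiSvb than in Ctrl (adjusted p 0.0411) and gw as lower in SvbREP than in RNAiSvb (adjusted p 0.0241). blanks, a double-stranded RNA-binding protein known from the testis, had 72, 41 and 27 counts in SvbACT, 92, 158 and 21 in SvbREP, 0 in each RNAiSvb library and 0, 3 and 1 in Ctrl. It was higher in SvbACT (edgeR adjusted p 0.00169) and in SvbREP (0.00143) than in Ctrl. In SvbREP it was at least 22.9-fold higher than in RNAiSvb, counted against a floor of 3 counts per library (edgeR adjusted p 5.69e-05). blanks was thus higher than in Ctrl with both overexpressed forms, while the piwi level of SvbREP overlapped that of Ctrl.

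Markers of other cell types were read beside these results. Of 12 listed markers of female germline and follicle cells, 7 had rows. Their sum was 8.08 to 18.75 CPM in SvbACT, 0.934 to 4.40 CPM in SvbREP, 4.45 to 24.1 CPM in RNAiSvb and 2.37 to 20.2 CPM in Ctrl. The SvbACT and Ctrl sums overlapped. Of the 4 markers tested, 3 had a log2 fold change above 0 in SvbACT over Ctrl, with a median of 1.42 over the 4, and edgeR called 0, with 2 at an unadjusted p under 0.05 and 0 called by DESeq2. Yp3, a yolk protein gene, had 15, 15 and 3 counts in SvbACT and 0 in each Ctrl library. The part of these markers in the SvbACT levels of piwi and CG33181 was not tested. Vm34Ca was at 0 counts in SvbACT and SvbREP, and Yp3 also at 0 in SvbREP. The highest sums in RNAiSvb and Ctrl were in replicate 1 of each. osk, bcd, bam, tj and Cp36 had no matching row.

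Of 8 hemocyte markers, 4 had rows. Hml was at 0 counts in every library, and srp, Col4a1 and vkg made up the sum of 42.1 to 105 CPM in SvbACT, against 11.7 to 20.2 CPM in SvbREP, 16.2 to 39.99 CPM in RNAiSvb and 22.2 to 39.4 CPM in Ctrl. Col4a1, a basement membrane collagen, had 110, 31 and 355 counts in SvbACT and 0 in each Ctrl library (edgeR adjusted p 0.00232). vkg had 52, 20 and 107 counts in SvbACT and 3, 10 and 4 in Ctrl, with a log2 fold change of 3.32 ± 0.94 (edgeR adjusted p 0.0547). srp, a blood cell transcription factor, averaged 25.1 CPM in SvbACT and 29.2 CPM in Ctrl, with a log2 fold change of -0.22 ± 0.37 (edgeR adjusted p 0.861). Of these 3 tested markers, edgeR called 1 and DESeq2 2 in SvbACT over Ctrl. The part of these markers in the SvbACT levels of piwi and CG33181 was not tested.

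The 8 visceral muscle markers summed to 108 to 167 CPM in SvbACT, 66.4 to 87.8 CPM in SvbREP, 96.2 to 114.7 CPM in RNAiSvb and 131 to 147 CPM in Ctrl. Most of the sum was how, at 117 CPM in SvbACT and 109 CPM in Ctrl. Of the 7 muscle markers tested, edgeR called 0 in SvbACT over Ctrl and 1, Mhc, as lower in SvbREP than in Ctrl (adjusted p 0.0336). In SvbACT over SvbREP it called 2 as higher, wupA (0.00939) and how (0.0146). The Mhc, wupA and how calls were lost in 6, 1 and 3 of 13 alternatives. The 8 enteroendocrine markers summed to 6.18 to 33.1 CPM in SvbACT, 5.60 to 14.8 CPM in SvbREP, 35.1 to 97.1 CPM in RNAiSvb and 6.74 to 27.5 CPM in Ctrl. The RNAiSvb range lay above all others, in the group where AGO3 was highest, and its part in that result was not tested. Of the 6 enteroendocrine markers tested, all 6 had a log2 fold change above 0 in RNAiSvb over Ctrl. There edgeR called 0 and DESeq2 1. The RNAiSvb counts were 93, 70 and 103 for pros and 0, 48 and 334 for Tk. In SvbACT over Ctrl edgeR called 1 of the 6, NPF, as higher (adjusted p 0.041). NPF had 86, 19 and 2 counts in SvbACT, and its call was lost in 5 of 12 alternatives.

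The 8 enterocyte markers summed to 417 to 686 CPM in SvbACT, 882 to 1051 CPM in SvbREP, 325 to 425 CPM in RNAiSvb and 577 to 821 CPM in Ctrl. The sums were highest in SvbREP and lowest in RNAiSvb. Most of the sum was Myo31DF, at 785 CPM in SvbREP and 241 CPM in RNAiSvb. Of the 7 markers tested, edgeR called 2 as higher in SvbREP than in RNAiSvb (Myo31DF and Myo61F), while nub, alphaTry and Amy-d had lower means in SvbREP. The Myo31DF call held in all 13 alternatives, and the Myo61F call was lost in 6 of 13. The part of these markers in the piwi and AGO3 differences between those groups was not tested.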

How the data were processed

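RNA of 12 libraries was sequenced as single reads of 100 nt from a low-input total RNA kit, per the labels' protocols. The submitters' processing notes name FastQC 0.11.5, STAR 2.5.2b, HTSeq 0.6.0, edgeR and the build dm6. Settings, strand use and the filter behind the 8802 genes are not given in the sources used here. Values are raw counts per gene as deposited. The table also holds the authors' log2 fold changes, p-values and calls (a score of 1, 0 or -1), deposited with no stated normalization; of these, 1 log2 fold change is printed. No count column was left out.

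Counts were fitted in R 4.3.3 with edgeR 4.0.16: filterByExpr (8069 genes tested), TMM, 1 mean per group over all 12 libraries, glmQLFit with robust estimation, the quasi-likelihood F test and Benjamini-Hochberg adjustment over all tested genes, at 0.05. SE was the log2 fold change over the root of F. log2 CPM used a prior count of 2. The common biological coefficient of variation was 34.6%. Depth sets the floor of 3 counts, which covers counting error only. No library was a copy of another (chi-square per degree of freedom 15.6 to 72.9 between replicates). The fit was tested on simulated counts. Alternatives were RLE and upper quartile scaling, no filter, DESeq2 1.42.0, only the groups compared, the replicate block, no robust estimation and leaving out each replicate.

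Members and lists were chosen with earlier results of these data known. Named genes were the members, ovo, list genes past the threshold, the 3 genes most like piwi and CG33181 and genes near a member; grk, tud and others given for context were added after their values were seen. Replicates were made on different days, and nothing says that a number names 1 day. Deviations of same-numbered SvbREP and Ctrl libraries correlated at 0.175, 0.108 and 0.256. The main fit did not use this pairing. For SvbREP over Ctrl its adjusted p-values ignore the replicate number unless the replicate block is named, and calls with that block are given beside them. In the other comparisons at least 1 pair was under 0.1. Positions come from the Ensembl annotation of the same assembly, in dm6 coordinates.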

Additional observations from a re-analysis of the deposited data

How the results depend on the processing

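Beyond the changes given beside the results, 315 of 323 values of single measured genes under the alternatives kept their direction and side of the threshold (or, in SvbACT comparisons, moved by less than 1 SD). The exceptions were piwi and AGO3 calls lost and CG33181 moved without a replicate, as given above, and 2 reversals among uncalled values in SvbREP over Ctrl: zuc lay between -0.21 (without SvbREP replicate 1) and 0.93, and CG33181 between -1.05 and 0.70 (without Ctrl replicate 2). Sign changes within 1 SD were not counted in SvbACT over SvbREP. There AGO3 lay between -0.255 and 0.106, armi between -0.231 and 0.204 and zuc between -0.304 and 0.85. In SvbACT over Ctrl, zuc counted as kept although it ran from 0.146 to 1.132. Values not called in the main fit had no call to lose, so the 315 do not measure how firm the calls were. Leaving out a replicate gave 1 to 2 measured genes called both in RNAiSvb over Ctrl and in SvbREP over RNAiSvb. CG33181 was filtered out with only SvbREP and Ctrl, or SvbREP and RNAiSvb, in the fit.

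Counts over all genes moved more. DESeq2 called 610 genes in SvbACT over Ctrl (360 by edgeR) and 314 in SvbREP over Ctrl (168). With only the groups compared, 1091 were called in RNAiSvb over Ctrl (686) and 340 in SvbACT over SvbREP (582). The replicate block gave 290 in SvbREP over Ctrl; it changed no call of a measured gene, and gave 500, 864, 685 and 956 in SvbACT over Ctrl, RNAiSvb over Ctrl, SvbACT over SvbREP and SvbREP over RNAiSvb (702 without it). Among list genes it also gave calls to vret in RNAiSvb over Ctrl (adjusted p 0.0484) and to gw (0.0326) and AGO1 (0.0178), lower in SvbREP than in RNAiSvb. Leaving out a replicate gave 175 to 279 in SvbACT over Ctrl, 54 to 242 in SvbREP over Ctrl, 407 to 549 in RNAiSvb over Ctrl, 355 to 599 in SvbACT over SvbREP and 407 to 904 in SvbREP over RNAiSvb. The cause was not tested, apart from the fewer libraries in those fits. Depth limits zuc, and CG33181 outside SvbACT, to a few counts per library.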
